A study of Mus musculus with 12 samples.

Results

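The DNAJ family, also called HSP40 or J proteins, was followed in AML12 cells, a line labelled as wild-type mouse hepatocytes, across the 4 groups of the study. Its members were the genes whose symbol begins with Dnaja, Dnajb or Dnajc and a number. Dnajb9, Dnajc3 and pseudogenes were left out. The rule found 39 members among the 24824 genes of the expression table, 4 of class A, 9 of class B and 26 of class C, and 33 of them were expressed highly enough to be tested. Group A was cultured in standard growth medium. Group B received 300 μM CuCl2 with 40 nM elesclomol, an ionophore that carries copper into cells (Cu/ES). Group C received the same Cu/ES with 1000 μM taurocholic acid (TCA), a conjugated bile acid, and group D received 1000 μM TCA alone. Every group was harvested after 24 h and had 3 libraries of polyadenylated RNA, numbered 1 to 3. The labels do not say whether these came from separate cultures, so a p-value measures the spread between libraries, which may be technical.

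J proteins are co-chaperones of HSP70. Their J domain stimulates HSP70 to hydrolyse ATP and so to clamp onto a client protein, and the rest of the molecule decides which client is delivered and where in the cell. Class A members carry a glycine- and phenylalanine-rich stretch and a zinc-binding region beside the J domain, class B members lack the zinc-binding region, and class C members share with the others only the J domain. Some are induced by protein damage in the cytosol under heat shock factors, and others serve the endoplasmic reticulum, mitochondria, ribosomes, endosomes or the splicing machinery. By known location, 10 members were placed in the cytosol and nucleus, 8 in the endoplasmic reticulum, 6 in mitochondria, 3 with nuclear RNA and chromatin, 3 with ribosomes and translation and 4 with vesicles and endosomes, while 1 is a protein of cilia and flagella and for 4 the place is unclear.

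Levels are given in FPKM, a read count divided by gene length and library total, which allows comparison between genes. Reads recovered from the spacing of the values summed to 38290273 to 39099637 per library in group A and 39434360 to 39772245 in group D, and were fewer with Cu/ES, at 30771090 to 31999051 for group B and 29112016 to 34908553 for group C. The median log2 fold change over the 10615 genes tested was -1.10 in group B vs. A and -1.13 in group C vs. D, but -0.03 in group C vs. B and -0.01 in group D vs. A. Each change with Cu/ES was therefore also read against that median, and under median-ratio scaling, which divides each library by its median ratio to an average library and moves the median to -0.03 in group B vs. A and -0.11 in group C vs. D. In bulk RNA, fewer cells of a type and less RNA per cell cannot be told apart. All 12 pairs of libraries within a group differed beyond counting error, with a chi-square per degree of freedom of 6.27 to 10.4 between libraries 1 and 3 and of 19.3 to 57.4 in pairs with library 2, so library 2 stood apart in every group.

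The labelled cell type was checked against markers. Of 9 hepatocyte markers in the table, 6 (Alb, Apoa1, Apob, Trf, Fgb and Hnf4a) had a mean FPKM under 0.1 in group A, and the level came almost entirely from the keratins Krt8 and Krt18. The list summed to 597 to 650 FPKM in untreated cells, 237 to 288 with Cu/ES, 173 to 210 with Cu/ES and TCA, and 698 to 718 with TCA alone. Its fall was that of Krt8 and Krt18, and Apoa2 was lower too. Apoa1 and Trf went the other way, with means of 1.86 and 0.72 FPKM in group B and 1.11 and 0.54 in group C. In groups A and D both were at or near 0. Alb, Apob, Fgb and Hnf4a stayed under 0.1 FPKM in every library. The 4 mesenchymal markers, led by Vim, summed to 2110 to 2326, 298 to 353, 154 to 195 and 1806 to 1928 FPKM in groups A, B, C and D, respectively. Of the 4 cholangiocyte markers, Krt19 led with 223 to 313 FPKM in group A, whereas Krt7 was at 0 in 2 of its 3 libraries. In the same order that list summed to 230.5 to 326, 111 to 140, 130 to 136 and 158 to 246 FPKM. Its fall with Cu/ES was that of Krt19, whereas Sox9 rose from a mean of 10.6 to 50.9 FPKM in group B vs. A and from 8.50 to 52.4 in group C vs. D. The endothelial list of 3 genes summed to 0.922 to 1.16, 6.76 to 10.5, 16.5 to 19.7 and 0.865 to 1.25 FPKM. Its rise was mostly that of Pecam1, with means of 0.21, 6.85, 16.1 and 0.13 FPKM. Cdh5 had 0.74, 0.93, 1.60 and 0.81, and Kdr 0.06, 0.32, 0.56 and 0.05. The leukocyte list of 3 genes, with Ptprc and Lyz2 near 0, summed to 72.5 to 102, 24.5 to 28.9, 23.9 to 36.6 and 25.5 to 37.0 FPKM. The part of these shifts in the results was not tested.

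Heat shock factors bind alternating inverted repeats of the letters GAA, and 4 members rose with Cu/ES in both comparisons below, so the sequence upstream of those 4 genes is shown with every pair of such repeats in capitals. The strand, coordinates and letters are those of RefSeq on GRCm38.p6. The 250 bases before each start were searched for GAANNTTC and TTCNNGAA, each of which is its own reverse complement, and overlapping matches were merged. All 4 windows lie on the plus strand and are printed 5′ to 3′.
Dnajb6, chr5:29735803-29735882: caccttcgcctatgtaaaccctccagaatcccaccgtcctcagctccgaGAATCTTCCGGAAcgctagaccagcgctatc
Dnaja4, chr9:54699444-54699523: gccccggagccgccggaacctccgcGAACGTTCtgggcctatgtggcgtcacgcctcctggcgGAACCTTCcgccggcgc
Dnaja1, chr4:40722313-40722392: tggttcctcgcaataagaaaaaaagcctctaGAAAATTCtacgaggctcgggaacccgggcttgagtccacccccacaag
Dnajb1, chr8:83608085-83608164: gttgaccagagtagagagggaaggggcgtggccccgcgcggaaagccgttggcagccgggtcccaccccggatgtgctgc
The Dnajb6 window holds overlapping copies of both motifs, which makes 3 alternating repeats in a row, the Dnaja4 window holds 2 separate pairs, and the Dnaja1 window holds 1. No match stood in the 250 bases before the listed start of Dnajb1, which says only that these letters are not in that window. Promoter windows were found for 31 of the 39 members. A pair stood in 6 of these 31 (19.4%) against 14.5% of 27025 genes, and 3 alternating repeats in a row stood in 1 of the 31 against 0.514% of genes. The 6 were Dnaja1, Dnaja4 and Dnajb6, and, among the 27 other members with a window, Dnajb4, Dnajc10 and Dnajc27. These 27 are members not called higher past both limits given below, and some of them were not tested, among them Dnajc27. Dnajb4 had a log2 fold change of 0.20 in group B vs. A, short of the fold limit. A match is a description of the letters and not a binding site.

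Cu/ES raised 4 members, all of them co-chaperones of HSP70 in the cytosol and nucleus, and lowered 15 others, 7 of them of the endoplasmic reticulum and 4 of mitochondria. The 4 were higher and 13 of the 15 lower under every scaling tried, the exceptions being Dnajc1 and Dnajc21. With an adjusted p under 0.05 and a log2 fold change beyond 1 in either direction as the limits (limma), the members that rose in group B vs. A were Dnajb1, Dnaja4, Dnaja1 and Dnajb6, 4 of 33 tested (12.1%), against 10.1% of all genes tested. The 15 that fell (45.5%) compare with 53.0% of all genes. Neither share stands far from that of all genes, so the family as a whole did not stand apart, and its members are described one compartment at a time. The members' median log2 fold change was -0.80, against -1.10 over all genes. Under median-ratio scaling 11 members were higher and 8 lower, against 25.9% and 25.5% of all genes, so the split of calls moved with the scaling. With TPM, which gives every library the same sum, and quantile scaling, which gives every library the same distribution, counted as well, 18 of the 33 members kept the sign of their change under all 4 scalings, 5 of them higher and 13 lower.

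**Figure D1:**
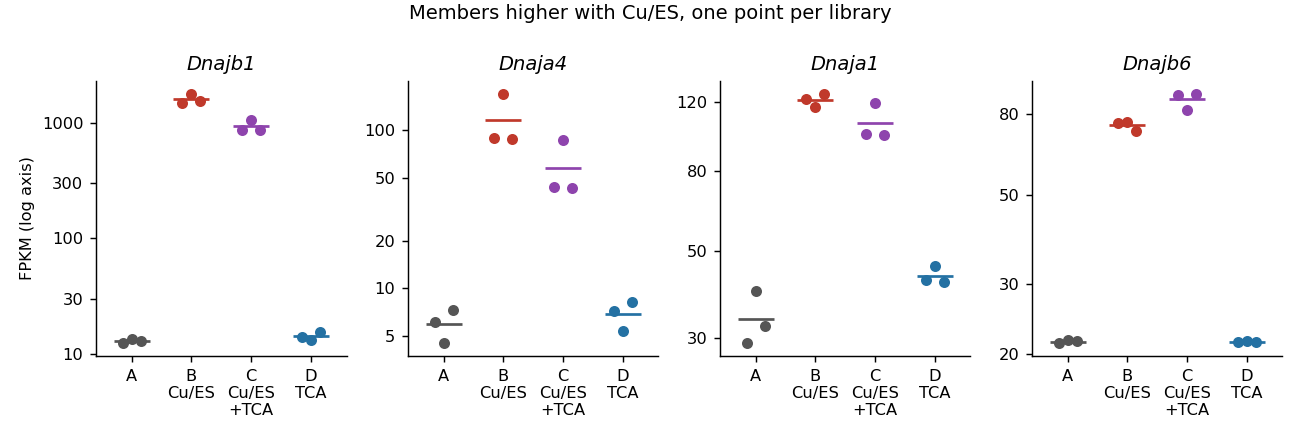
FPKM on a log axis of the 4 members that rose with Cu/ES, with 1 point per library and a bar at the mean of each group of 3. Groups B and C lie above groups A and D for each gene, and library 2 of groups B and C lies above the other two libraries for Dnaja4.

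Dnajb1, the canonical stress-inducible HSP40 that works with HSP70 in refolding and in dissolving aggregates, had 12.3, 13.3 and 12.8 FPKM in untreated cells, against 1505, 1801 and 1559 with Cu/ES. All 3 libraries of group B thus lay far above those of group A. The mean rose 127-fold, and the log2 fold change was 6.87 (SE 0.09, adjusted p = 1.45e-15 by limma), or 7.97 above the median of all genes. The groups did not overlap, but an exact two-sided permutation test of 3 libraries against 3 cannot go below p = 0.1, here or for any other member. With TCA in both groups the FPKM values were 14.1, 13.1 and 15.3 in group D and 877, 1072 and 878 in group C, a log2 fold change of 5.95 (SE 0.09).

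Dnaja4, a heat-inducible member of class A, stood at 6.09, 4.47 and 7.30 FPKM in untreated cells and at 89.1, 171 and 87.8 with Cu/ES. Library 2 of group B read 1.93 times the mean of the other two, and the same held in group C, where the values were 43.8, 86.9 and 43.3 FPKM and library 2 read 1.997 times the mean of the others. Group D held 7.20, 5.34 and 8.15 FPKM. Despite that spread, groups with and without Cu/ES did not overlap. The log2 fold change was 4.02 (SE 0.28, adjusted p = 4.33e-09 by limma) in group B vs. A and 2.84 in group C vs. D, and 3.54 and 2.36 with libraries 1 and 3 only.

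Dnaja1, a class A co-chaperone of cytosolic HSP70 in refolding and protein import, was already well expressed, at 29.1, 39.6 and 32.3 FPKM in group A, and reached 122, 116 and 126 in group B. Library 2 was the highest of group A and the lowest of group B, without overlap between the groups. Its log2 fold change was 1.83 (SE 0.10), or 2.93 above the median of all genes. In group D it had 42.2, 45.8 and 41.8 FPKM and in group C 99.8, 119 and 99.1.

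Dnajb6, a class B member known for suppressing the aggregation of polyglutamine proteins, varied least among its libraries. It went from 21.25, 21.7 and 21.6 FPKM without Cu/ES to 75.9, 76.4 and 72.4 with it, a log2 fold change of 1.75 (SE 0.06). In group D it had 21.4, 21.6 and 21.4 FPKM, and in group C it reached 89.2, 81.7 and 89.8. It was the only riser whose 3 libraries of group C all lay above those of group B.

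These changes reordered the family. In group A the highest mean levels were those of Dnajc10 (113 FPKM), Dnaja2 (62.5) and Dnajc8 (56.7), and Dnajb1 came 16th. In group B Dnajb1 led with 1622 FPKM, followed by Dnaja1 (122) and Dnaja4 (116), whose libraries overlap in range. In group C the order was Dnajb1 (942), Dnaja1 (106) and Dnajb6 (86.9). The summed level of all 39 members was 698 ± 16.6 FPKM in untreated cells, 2312 ± 208 with Cu/ES, 1563 ± 146 with Cu/ES and TCA, and 770 ± 17.7 with TCA alone (SD, n = 3). Dnajb1 made up 1.83%, 70.1%, 60.2% and 1.84% of these sums, in the same order. Without Dnajb1 they were 685 ± 16.1, 690 ± 50.5, 621 ± 34.2 and 756 ± 17.2 FPKM, and without all 4 risers 624, 378, 370 and 684. All sums, also those by class and compartment below, are of FPKM as deposited. Median-ratio scaling would divide them by 1.58 to 1.61 in group A and by 0.65 to 0.66 in group B. The direction of a difference between sums with and without Cu/ES can therefore turn with the scaling. The number of members with at least 1 FPKM was 34 in every library of groups A and D, 27 to 28 in group B and 26 in group C. The same count was not taken over all genes, whose median log2 fold change was -1.10 and -1.13 in these comparisons with Cu/ES. This drop therefore cannot be read as particular to the family.

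**Figure D2:**
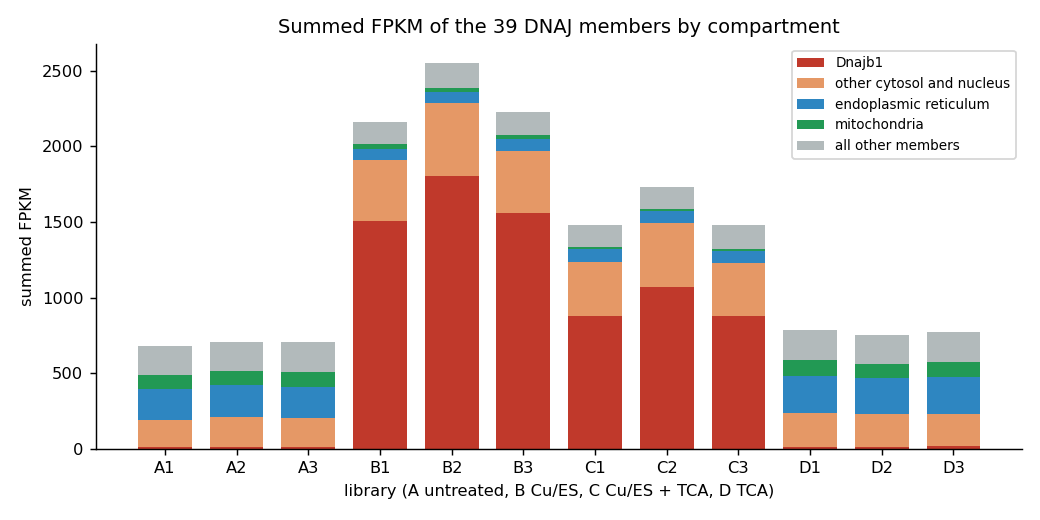
Summed FPKM, as deposited and not rescaled, of the 39 members in each of the 12 libraries, stacked by compartment with Dnajb1 apart. The Dnajb1 segment is barely visible in groups A and D and fills 70.1% of the sum in group B and 60.2% in group C on average, while the segments of the endoplasmic reticulum and mitochondria shrink.

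The other 6 members of the cytosol and nucleus moved less. Of the 10 in all, 4 were higher and 1 lower past both thresholds in group B vs. A, against 10.1% and 53.0% of all genes. Under median-ratio scaling 7 were higher and 1 lower, against 25.9% and 25.5%. The median log2 fold change of the 10 was 0.24. Dnaja2, a class A partner of the constitutive HSC70, had a log2 fold change of 0.23, Dnajb2, which binds ubiquitin chains, of 0.26, and Dnajb4, a close relative of Dnajb1, of 0.20. All 3 lay 1.30 to 1.36 above the median of all genes, and each turned negative under at least 1 other scaling in this comparison. Dnajc7, which binds both HSP70 and HSP90, stood at -0.56 and turned positive under median-ratio scaling (0.69). Dnajb5, another relative of Dnajb1, had 3.12, 2.80 and 3.36 FPKM in untreated cells and 1.28, 0.92 and 1.55 with Cu/ES, all lower, with a log2 fold change of -0.87 that passed the adjusted p and not the fold, and that turned to 0.50 under quantile scaling. Dnajc12, a co-chaperone of aromatic amino acid hydroxylases, was the 1 that fell, with a log2 fold change of -2.18 and 177, 212 and 222 reads in group A against 5, 0 and 4 in group B.

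Of the 8 members of the endoplasmic reticulum, 7 fell in group B vs. A and 7 in group C vs. D, against 53.0% and 53.3% of all genes. The sign of 6 of these 7 was negative under every scaling, the exception being Dnajc1. Their median log2 fold change was -1.98 and -1.90, with 5 and 4 called lower under median-ratio scaling (25.5% and 27.2% of all genes). Their summed level was 209 ± 6.64 and 240.1 ± 3.04 FPKM in groups A and D, against 73.5 ± 5.21 and 81.8 ± 4.83 in groups B and C. Dnajc10 (ERdj5), a reductase of disulfide bonds in the lumen and the most abundant member without Cu/ES, had 108, 116 and 113 FPKM in untreated cells, against 18.6, 14.3 and 19.9 with Cu/ES. It fell 6.40-fold (log2 fold change -2.62, SE 0.11). In group D it had 128, 126 and 127 FPKM and in group C 28.0, 21.8 and 27.9, so that library 2 was the lowest in both groups with Cu/ES.

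The membrane proteins of this compartment fell with it. Dnajc14, known from the transport of receptors to the surface, went from 22.0, 24.8 and 22.9 FPKM in group A to 3.94, 3.94 and 4.85 in group B (log2 fold change -2.21), and stood at 24.6, 24.9 and 23.9 in group D and 5.91, 3.31 and 5.54 in group C. Dnajc16 dropped from 6.55, 6.03 and 7.08 FPKM to 0.37, 0.46 and 0.33 (-2.44), with 7.01, 7.62 and 7.74 in group D and 0.61, 0.58 and 0.22 in group C. For neither gene did the groups with and without Cu/ES overlap.

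Dnajb12, Dnajb14 and Dnajc18 are close relatives whose J domain faces the cytosol and which serve the degradation of membrane proteins. Dnajb12 had 20.9, 22.5 and 22.7 FPKM in untreated cells and 26.5, 25.8 and 28.4 with TCA alone, against 7.45, 7.73 and 6.39 with Cu/ES and 6.74, 5.81 and 6.39 with Cu/ES and TCA. Dnajc18 had 6.10, 6.29 and 5.70 FPKM in untreated cells and 5.12, 6.17 and 5.27 with TCA alone, against 0.59, 0.67 and 0.52 with Cu/ES and 0.79, 0.75 and 0.78 with both. All 3 fell in both comparisons, with log2 fold changes of -1.49, -1.82 and -2.14 in group B vs. A. The sign was negative under every scaling, but not always beyond the fold limit, with -0.31 for Dnajb12 under median-ratio scaling and -0.50 for Dnajb14 and -0.80 for Dnajc18 under quantile scaling.

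Dnajb11 (ERdj3), which brings unfolded proteins to BiP in the lumen, was the exception of the compartment. It had 28.2, 30.9 and 28.6 FPKM in untreated cells and 41.2, 38.3 and 44.2 with Cu/ES, where all 3 libraries were higher. Its log2 fold change was 0.48 (SE 0.07, adjusted p = 1.68e-05 by limma), 1.58 above the median of all genes, and in TPM it was 0.12 (adjusted p = 0.12). With TCA in both groups it had 42.2, 36.8 and 38.8 FPKM in group D and 40.9, 42.1 and 40.7 in group C, which overlap, and a log2 fold change of 0.07 that turned to -0.21 in TPM. Under median-ratio scaling Dnajb11 passed both limits, with 1.73 in group B vs. A and 1.30 in group C vs. D. Quantile scaling gave 0.93 and 0.52. Dnajc1 (ERdj1), a membrane partner of BiP, fell by 1.22 in both comparisons, close to the median of all genes, and turned positive under quantile scaling.

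**Figure D3:**
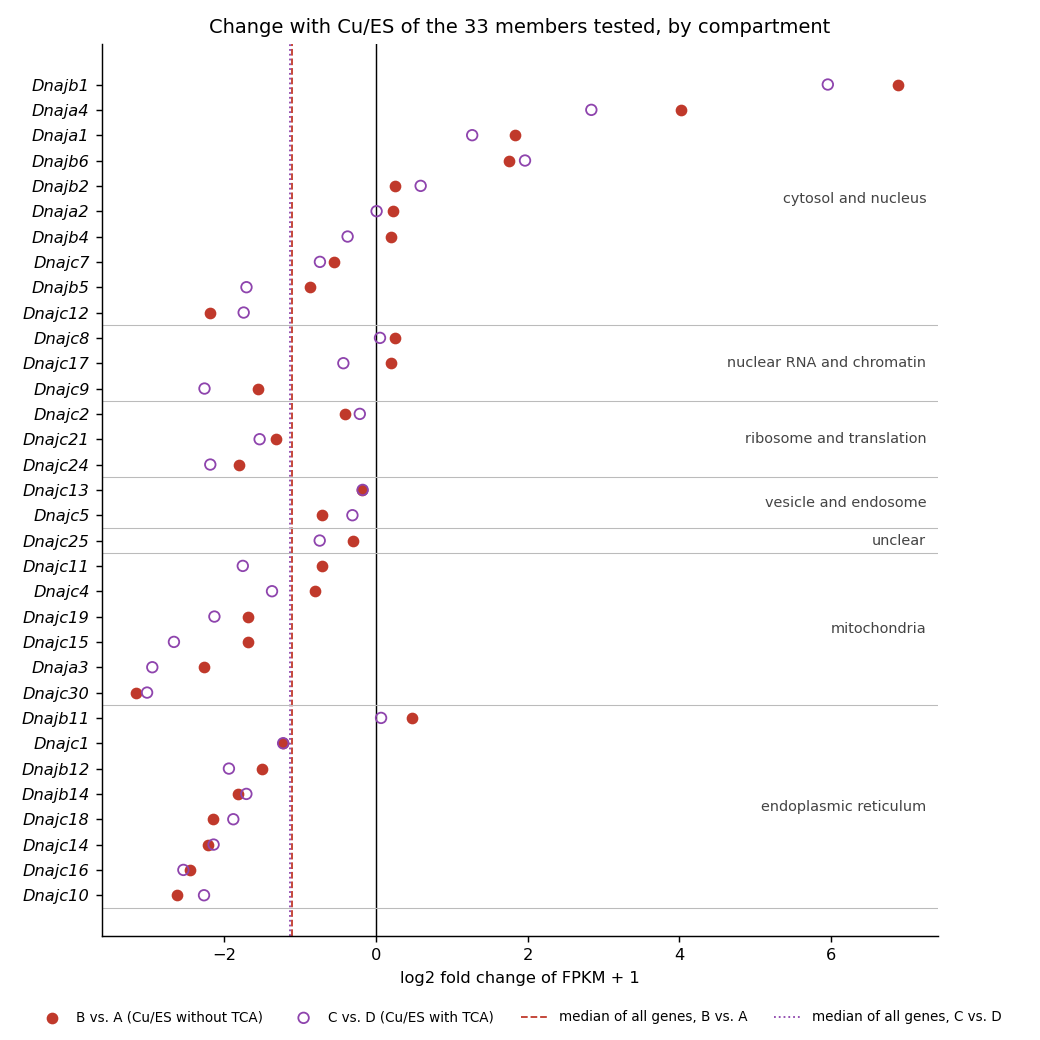
Log2 fold change of FPKM + 1 for the 33 members tested, in group B vs. A (filled) and group C vs. D (open), grouped by compartment, with dashed and dotted lines at the median of all genes (-1.10 and -1.13). Dnajb1, Dnaja4, Dnaja1 and Dnajb6 lie to the right of 1 in both comparisons. Of 33 members, 15 change sign under another scaling in group B vs. A and 11 in group C vs. D.

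Mitochondrial members were lower in both comparisons. In group B vs. A, 4 of 6 fell past both thresholds, against 53.0% of all genes, and the other two, Dnajc4 and Dnajc11, turned positive under another scaling. In group C vs. D all 6 fell, against 53.3% of all genes, and had a negative sign under every scaling. For Dnajc4, however, the value under quantile scaling was -0.01, which is hardly a change. Under median-ratio scaling 2 and 4 were called lower, against 25.5% and 27.2% of all genes. The median log2 fold change was -2.39 in group C vs. D, compared to -1.68 in group B vs. A. Their summed level was 94.3 ± 4.25 and 100.3 ± 9.57 FPKM in groups A and D, against 26.2 ± 2.96 and 13.9 ± 1.35 in groups B and C. Dnaja3, the class A partner of mitochondrial HSP70, had 32.4, 27.9 and 34.8 FPKM in untreated cells and 5.61, 6.74 and 5.12 with Cu/ES, a 5.45-fold fall (log2 fold change -2.26, SE 0.12). In group D it had 39.2, 31.0 and 39.1 FPKM and in group C 3.80, 3.42 and 4.37, a 9.43-fold fall.

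Dnajc30, an inner membrane protein linked to ATP synthase and to the turnover of complex I, was nearly absent with Cu/ES. It had 341, 402 and 390 reads in group A (7.68, 8.90 and 8.60 FPKM) and 6, 0 and 0 reads in group B. In group D it had 366, 326 and 367 reads and in group C 2, 6 and 1. The fitted log2 fold changes of -3.16 and -3.01 depend on the pseudocount of 1 at such low counts. Dnajc19, a subunit of the motor that imports proteins into the matrix, fell by 1.68 in group B vs. A and by 2.12 in group C vs. D.

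Dnajc15, known as a negative regulator of complex I, had 29.9, 28.6 and 31.3 FPKM in untreated cells and 12.3, 6.90 and 7.47 with Cu/ES, where library 1 was the highest. In group D it had 35.3, 25.3 and 30.6 FPKM and in group C 3.76, 4.82 and 3.34. The log2 fold change was -1.69 (SE 0.17) in group B vs. A and -2.66 in group C vs. D. Dnajc11, which takes part in organising the cristae, had 9.59, 10.98 and 9.99 FPKM in untreated cells and 12.5, 14.3 and 12.7 with TCA alone, against 6.02, 5.61 and 5.99 with Cu/ES and 3.00, 3.07 and 3.56 with both. The 4 groups of Dnajc11 did not overlap with each other. Its log2 fold change was -0.70 in group B vs. A, which turned to 0.44 under median-ratio scaling, and -1.75 in group C vs. D.

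The members that serve RNA, chromatin and translation split. Dnajc9, a chaperone of histones H3 and H4, fell from 13.3, 16.6 and 15.6 FPKM in untreated cells to 5.03, 3.98 and 4.58 with Cu/ES (log2 fold change -1.55, SE 0.11). Dnajc8 and Dnajc17, both linked to splicing, had log2 fold changes of 0.26 and 0.20, of which the second missed the adjusted p (0.14), and both changed sign under another scaling. Dnajc24, which takes part in making diphthamide on elongation factor 2, and Dnajc21, of ribosome assembly, fell by 1.80 and 1.31. Dnajc21 changed sign under another scaling and Dnajc24 did not. Dnajc2, which joins the ribosome at nascent chains, stood at -0.40 and turned positive under median-ratio scaling (0.81) and quantile scaling (0.49). Among vesicle and endosome members, Dnajc5, the cysteine string protein, had a log2 fold change of -0.71, and Dnajc13, which acts on endosomal clathrin, of -0.19, and both turned positive under median-ratio scaling.

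The comparison of group C vs. D asks the same question with TCA in both groups and shares no library with group B vs. A. Again 4 members rose (11.2% of all genes did) and 18 fell (53.3%). The 4 risers were the same genes, and the 18 comprised the 15 that fell in group B vs. A with Dnajc4, Dnajc11 and Dnajb5. Under median-ratio scaling 9 were higher (25.9% of all genes) and 11 lower (27.2%). The members' median log2 fold change was -1.37, against -1.13 over all genes. Of the 33 members, 31 had the same sign in both comparisons. The change of 21 was lower in group C vs. D than in group B vs. A, as it was for 5307 of the 10615 genes tested. Across these 33 genes, which are not independent replicates and share each library's depth, Pearson's r between the comparisons was 0.97 and Spearman's rho 0.94. The count of equal signs and both correlations were not computed over all genes, so they cannot be read as particular to the family.

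By class, 2 of 4 members of class A, 2 of 8 of class B and 0 of 21 of class C rose past both thresholds in each of these comparisons (limma). Of all genes, 10.1% did so in group B vs. A and 11.2% in group C vs. D. Under median-ratio scaling 3 and 2 members of class C rose, against 25.9% of all genes in each comparison. In group B vs. A, 1 of class A, 2 of class B and 12 of class C fell, and in group C vs. D 1, 3 and 14, against 53.0% and 53.3% of all genes. Under median-ratio scaling these counts were 1, 1 and 6, and 1, 0 and 10, against 25.5% and 27.2% of all genes. In FPKM as deposited, not rescaled, the summed level of class C was 453 ± 10.4 and 483 ± 8.32 in groups A and D, and 227 ± 4.10 and 223 ± 5.15 in groups B and C. Class B summed to 111 ± 2.91 FPKM in group A and 1769 ± 157 in group B, nearly all of the difference being Dnajb1, without which the sums were 98.3 ± 2.38 and 146.6 ± 0.20. Class A summed to 134 ± 3.71 and 317 ± 46.7.

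The effect of TCA under Cu/ES was smaller and went in both directions. In group C vs. B, 5 of 33 members were higher and 13 lower at an adjusted p under 0.05, against 20.4% and 23.6% of all genes, and none passed a log2 fold change of 1 as well. These values share group B with those above. The largest differences were those of Dnaja4 (-0.99, SE 0.28, adjusted p = 0.012), Dnajc15 (-0.96, SE 0.17), Dnajb1 (-0.78, SE 0.09) and Dnajc9 (-0.73, SE 0.11). For Dnajb1 the highest library of group C, at 1072 FPKM, lay below the lowest of group B, at 1505. For Dnaja4 the ranges stood as close as 86.9 and 87.8 FPKM, and the adjusted p was 0.061 without library 2 of group B, 0.052 without library 1 of group C and 0.057 without library 3 of group C. Dnajc9 had 2.42, 2.70 and 1.88 FPKM in group C, all below group B, and 15.6, 15.2 and 13.8 in group D.

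By compartment, 5 of the 6 mitochondrial members were lower with TCA under Cu/ES, all but Dnajc30, whose reads were near 0 in both groups. For this count and those below, 23.6% of all genes were lower and 20.4% higher. All 3 members of nuclear RNA and chromatin were lower, by 0.73 for Dnajc9 and Dnajc17 and by 0.31 for Dnajc8. Of the 8 members of the endoplasmic reticulum 0 were lower and 1, Dnajc10, was higher (0.54, SE 0.11). The other members that were higher were Dnajc2 (0.56), Dnajc5 (0.47), Dnajb2 (0.26) and Dnajb6 (0.21). The sign of 31 of the 33 members was the same under all 4 scalings, the exceptions being Dnajc13 and Dnajc25.

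TCA without Cu/ES raised 9 of 33 members and lowered 0 at an adjusted p under 0.05 (limma), against 10.5% and 11.5% of all genes. None passed a log2 fold change of 1, and group A is shared with the comparison of group B vs. A. Without library 1 of group A the count was 4 and without library 1 of group D it was 5. Over all genes, 1114 higher and 1225 lower became 695 and 710, and 716 and 760, respectively. The largest rise was that of Dnajc25, a membrane protein, from 1.97, 2.20 and 2.17 FPKM in group A to 2.98, 3.31 and 3.38 in group D, without overlap (log2 fold change 0.44, SE 0.09, adjusted p = 0.0050). In groups B and C it had 1.30, 1.89 and 1.45 and 1.63, 1.51 and 1.46 FPKM. Dnajb11 came next (0.41, SE 0.07), then Dnajb5 (0.38, SE 0.10), which missed the adjusted p when any of 4 libraries was left out and had 4.47, 4.22 and 4.25 FPKM in group D and 0.57, 0.61 and 0.72 in group C. The others were Dnajc2 (0.37), Dnaja1 (0.36), Dnajc7 (0.35), Dnajc11 (0.34), Dnajb12 (0.28) and Dnaja2 (0.23), and all 9 were higher under every scaling. The stress-inducible Dnajb1 had a log2 fold change of 0.14 (adjusted p = 0.31) and Dnajb6 of 0.00 (SE 0.06).

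The effect of TCA with Cu/ES was set against its effect without in the same fit, as an interaction. It passed an adjusted p of 0.05 for 16 of 33 members, against 37.5% of all genes. The value was negative for 14 (19.8% of all genes), meaning a lower effect of TCA with Cu/ES, and positive for 2 (17.7%). Dnaja4 was lowest (-1.18, SE 0.40, adjusted p = 0.034), followed by Dnajc11 (-1.05, SE 0.12) and Dnajc15 (-0.97, SE 0.25). Dnajc11 and Dnajb5 passed in opposite directions, higher with TCA alone and lower with TCA under Cu/ES. The interaction of Dnaja4 missed the adjusted p when any of 7 libraries was left out, at 0.078 without library 2 of group B.

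**Figure D4:**
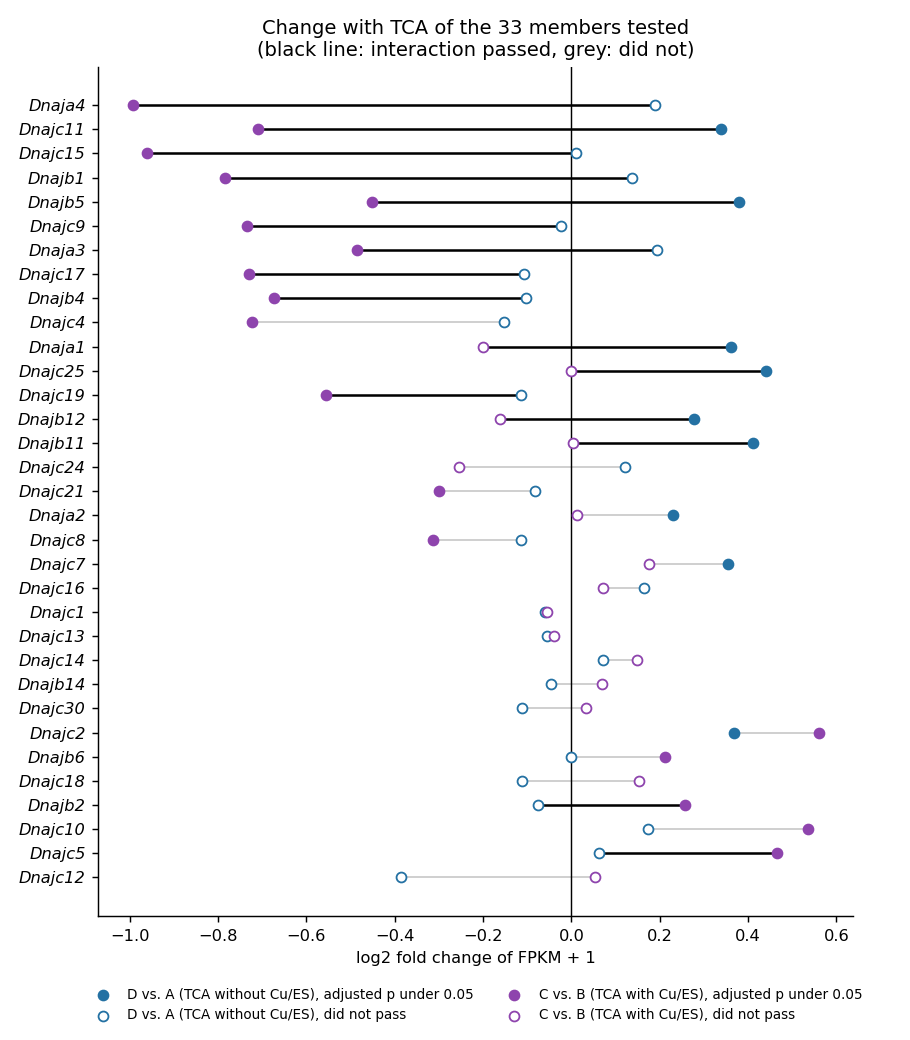
Log2 fold change of FPKM + 1 with TCA for the 33 members tested, without Cu/ES (group D vs. A, blue) and with it (group C vs. B, purple), where filled points passed an adjusted p of 0.05 and black lines mark an interaction that passed. The members are sorted by the interaction, from Dnaja4 at -1.18, and 14 of the 16 black lines run to the left from the blue point to the purple one.

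J proteins act through HSP70, and nucleotide exchange factors end the cycle by releasing ADP. Of 15 genes of HSP70 and its larger relatives 13 were tested, and 5 rose and 4 fell in each comparison with Cu/ES, or 7 and 1 under median-ratio scaling. For this list and those below, the shares of all genes were 10.1% higher and 53.0% lower in group B vs. A and 11.2% and 53.3% in group C vs. D, or 25.9% and 25.5%, and 25.9% and 27.2%, under median-ratio scaling. Hspa8, the constitutive HSP70 of the cytosol, had 758, 907 and 804 FPKM in untreated cells and 8495, 9168 and 8560 with Cu/ES (log2 fold change 3.41, and above 0 under every scaling), with 539, 698 and 544 in group D and 6909, 8080 and 6871 in group C. The stress-inducible Hspa1a and Hspa1b are near-identical copies whose reads cannot be split with certainty. Hspa1b had 0.49 to 1.21 FPKM in group A and 7252 to 8946 in group B, and Hspa1a, at 0 in every library of group A, had 308 to 682 in group B.

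The HSP70 proteins of the organelles did not all move in the same direction. Hspa5 (BiP), of the endoplasmic reticulum, had 762, 709 and 825 FPKM in untreated cells and 1494, 1767 and 1491 with Cu/ES, a log2 fold change of 1.05 that came to -0.01 under quantile scaling. In group D it had 1063, 866 and 996 FPKM and in group C 1965, 2178 and 1906. Its relatives in the same compartment, Hyou1 and Hspa13, fell in group B vs. A, with log2 fold changes of -1.09 and -1.14. In group C vs. D the values were -0.29 and -1.01, of which that of Hspa13 passed both thresholds, and all 4 values turned positive under median-ratio scaling. Hyou1 and Hspa13 were singled out after their values were seen. Hspa9, of mitochondria, had 293, 271 and 312 FPKM in untreated cells and 454, 472 and 458 with Cu/ES, a log2 fold change of 0.66 that was 0.01 under quantile scaling, with 353, 307 and 329 FPKM in group D and 523, 546 and 504 in group C. Of 10 nucleotide exchange factors 2 rose and 4 fell in group B vs. A, and 3 rose and 4 fell in group C vs. D. Under median-ratio scaling 4 rose and 2 fell, and 4 rose and 3 fell. Of 3 J proteins with other names (Sec63, Hscb and Gak) 0 rose and 1 fell in group B vs. A, and 0 rose and 2 fell in group C vs. D, or 0 and 1 in each under median-ratio scaling.

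The 6 members below a mean of 1 FPKM were not tested. Dnajc27, a small GTPase with a J domain, had 1.35, 1.42 and 1.29 FPKM in untreated cells and 0.24, 0.30 and 0.28 with Cu/ES, with 1.26, 1.75 and 1.38 in group D and 0.32, 0.27 and 0.39 in group C. Dnajc22 had 59, 49 and 68 reads in group A and 13, 24 and 39 in group D, but 0, 0 and 1 in group B and 0, 0 and 2 in group C. Dnajc28 had 55 to 56 reads in group A and at most 8 in a library with Cu/ES. Dnajb13, Dnajc5b and Dnajc6, known from sperm and cilia, testis and neurons, had at most 16 reads in any library. No test was made on these 6.

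Some members share sequence with neighbours. In the GENCODE annotation of GRCm38, exons of 16 members overlap those of another gene, and for 13 of these the other gene codes for protein. Among the 13 are the risers Dnaja1 with Smu1, Dnaja4 with Wdr61 and Dnajb6 with Gm5129. Others are Dnaja3 with Vasn and Coro7, Dnajc14 with Sarnp, Dnajc19 with Fxr1 and Dnajc30 with Bud23. The strand setting of the counting is not given in the sources used here, so it is not known how reads in the overlapping parts were assigned.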

How the data were processed

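Group membership, doses and times came from the sample labels. The authors deposited FPKM values for 24824 genes, with 1 column per library and replicates kept apart. The submitters' processing notes name fastp, HISAT2, HTSeq and the build GRCm39, while versions, annotation and strand setting are not given in the sources used here.

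The deposited FPKM values were put on a log2 scale after a pseudocount of 1 was added, and the 10615 genes whose mean over the 12 libraries reached 1 FPKM were tested. A log2 fold change on this scale understates the change of low genes. A single limma fit (version 3.58.1, R 4.3.3) held the 4 groups, with moderated variances, a mean-variance trend and 8 residual degrees of freedom. Tests were two-sided, and Benjamini-Hochberg adjustment ran over all genes tested. Calls needed an adjusted p under 0.05 and, in group B vs. A and group C vs. D, an absolute log2 fold change above 1. Single members were also compared by exact permutation tests.

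The steps between FPKM values gave whole reads for 22212 of 22212 genes above 0 in at least 2 libraries (100%, within 0.05 of a whole read), and limma-voom was run on them. Alternatives were a pseudocount of 0.1, no filter or a minimum of 5 FPKM, TPM, median-ratio and quantile scaling, a replicate block, a fit without the trend or with the compared groups alone, and leaving out libraries 1 at a time. A fit of libraries 1 and 3 only was added after the data were seen. The code was tested on simulated data.

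Members and gene lists were chosen with earlier results of these data known. In the list of J proteins with other names, 1 gene is not reported here. Values in every library are given for members that rose with Cu/ES, the 6 that fell most in group B vs. A with at least 5 FPKM in group A, the 4 with the largest change in group C vs. B, the 3 largest in group D vs. A and in the interaction, and organelle members with at least 10 FPKM. Tables and plots used Python 3.11.15 with matplotlib 3.10.9, scipy 1.17.1, pandas 2.3.3 and numpy 2.4.6.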

Additional observations from a re-analysis of the deposited data

Results flagged for a closer look

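The effect of TCA differed between cells with and without Cu/ES for 16 members, by the interaction term of the limma fit at an adjusted p under 0.05, against 37.5% of all genes tested. The difference was negative for 14 of them, against 19.8% of all genes. In the cytosol and nucleus it was -1.18 for Dnaja4, -0.92 for Dnajb1, -0.83 for Dnajb5, -0.57 for Dnajb4 and -0.56 for Dnaja1, on the log2 scale. In mitochondria it was -1.05 for Dnajc11, -0.97 for Dnajc15, -0.68 for Dnaja3 and -0.44 for Dnajc19. For members of nuclear RNA and chromatin it was -0.71 for Dnajc9 and -0.62 for Dnajc17, and in the endoplasmic reticulum -0.44 for Dnajb12 and -0.41 for Dnajb11. Dnajc25, whose place is unclear, had -0.44. The difference was positive for Dnajb2 (0.33) and Dnajc5 (0.40), of which Dnajb2 missed the adjusted p under median-ratio scaling (0.091). The value of Dnaja4 rests on libraries that differ by up to 1.95-fold within group B and 2.01-fold within group C.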

How the results depend on the processing

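The split between higher and lower calls depended on the scaling. In group B vs. A, 4 members higher and 15 lower became 11 and 8 under median-ratio scaling and 8 and 6 under quantile scaling. Of all 10615 genes, 1070 and 5622 became 2753 and 2710, and 2198 and 2353. In group C vs. D, 4 and 18 became 9 and 11, and 5 and 6, while 1189 and 5662 of all genes became 2752 and 2887, and 2269 and 2448. A minimum of 5 FPKM, which left 24 members to test, gave 8 lower in group B vs. A and 10 in group C vs. D. Of all 6878 genes tested there, 3312 and 3453 were lower. Without single libraries the count in group D vs. A ran from 4 (without library 1 of group A) to 9, with 5 without library 1 of group D. Calls over all genes fell there too, from 1114 higher and 1225 lower to 695 and 710, and to 716 and 760, respectively. Changes turned sign for Dnajc25 in group B vs. A (0.53 under median-ratio and 1.03 under quantile scaling) and group C vs. D (0.13 and 0.60), Dnajc11 in group B vs. A (0.44 and 0.55), Dnajb5 in group B vs. A (0.50, quantile) and Dnajb11 in group C vs. D (-0.21, TPM). With libraries 1 and 3 only, a choice made after the data were seen, the counts were 4 and 16, 4 and 18, 19 in group C vs. B, 12 in group D vs. A and 20 interactions, against 9.98% and 52.6%, 11.2% and 52.7%, 51.3%, 29.9% and 47.2% of all genes. The replicate block gave 15 interactions against 16 and changed no other count. Deviations of same-numbered libraries correlated with r from -0.17 to 0.58, and only the 3 pairs of groups A and B all exceeded 0.1. Of 771 values of 45 results for 17 named members under alternatives, 741 kept their sign and their side of the adjusted p. Beside the changed signs above, the adjusted p crossed 0.05 for Dnaja4 (TCA), Dnajb5 (group B vs. A and group D vs. A) and Dnajb11. With the fold limit counted as well, calls in group B vs. A were lost by Dnajb12 (-0.31), Dnajc15 (-0.48) and Dnajc9 (-0.40) under median-ratio scaling and by these 3 and Dnajc18 under quantile scaling. In group C vs. D they were lost by Dnajb12 (-0.77), Dnajb5 (-0.93) and Dnajc11 (-0.67) under median-ratio scaling, by these 3, Dnajc9 and Dnajc18 under quantile scaling, and by Dnaja1 (0.99) in TPM. Dnajb11, Dnajb5, Dnajc11 and Dnajc25 passed both limits under some settings where they had not. The cause was not tested. Depth limits Dnajc12, Dnajc22, Dnajc28, Dnajc30, Dnajb13 and Dnajc5b, which had at most 10 reads in any library with Cu/ES.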
